A study of Mus musculus with 6 samples.

Results

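Ptf1a, Rbpjl and Rbpj are the DNA-binding partners of the PTF1 complex, and these 3 genes were taken by symbol from the 31028 genes of the RNA file and the 8269 genes of each ATAC file. The embryos were C57BL/6 mice of 2 genotypes. Wild-type embryos (WT) were Ptf1a+/+. Mutant embryos (KO) were labelled Ptf1aenh-delta/enh-delta, meaning that both copies of a Ptf1a enhancer were deleted, and the labels name no change to the gene itself. At embryonic day 10.5 (E10.5), hand-dissected tissue of multipotent pancreatic progenitors was pooled from 5 to 9 embryos per dataset, for single-cell RNA sequencing and, in other libraries, single-cell ATAC sequencing, which reads open chromatin. At embryonic day 13.5 (E13.5), whole pancreas of 6 pooled embryos per genotype was used for ATAC alone. Each group is 1 library, so no value has a replicate error, no test was possible, and every interval is a 95% interval of counting error only.

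PTF1 is a complex of 3 proteins. Ptf1a is a basic helix-loop-helix factor that pairs with an E protein (Tcf3, Tcf4 or Tcf12) to read an E-box, and Rbpj or its paralog Rbpjl reads a neighbouring TC-box. Rbpj is also the DNA-binding effector of Notch signalling and is made in most cell types. Rbpjl is largely restricted to the exocrine pancreas, is known as a target of PTF1, and takes the place of Rbpj in the complex as acinar cells form. Ptf1a is needed for the pancreas to form and later keeps acinar enzyme genes on.

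In RefSeq coordinates on GRCm38.p6, Ptf1a (gene ID 19213) lies at chr2:19445663-19447501, Rbpjl (19668) at chr2:164403081-164415448 and Rbpj (19664) at chr5:53555779-53657445, all on the plus strand. Stretches at annotated start sites of the genes are printed because Ptf1a and Rbpjl were low together in the KO libraries and PTF1 acts on paired boxes. Capitals mark the letters TGGGAA (TC-box, searched on both strands) and CANNTG (E-box, the same on both strands).
Ptf1a, chr2:19445413-19445662, the 250 bases that end at the start site: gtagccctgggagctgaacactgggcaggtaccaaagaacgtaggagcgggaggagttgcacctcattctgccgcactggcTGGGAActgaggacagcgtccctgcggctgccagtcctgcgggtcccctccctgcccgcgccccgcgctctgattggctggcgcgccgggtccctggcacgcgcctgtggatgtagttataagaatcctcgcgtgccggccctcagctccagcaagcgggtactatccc
Rbpjl, chr2:164403088-164403117, 30 bases within the first exon of the earliest start and ahead of a later start: cgTGGGAAgcctaCATCTGcccagCAGGTG
Rbpj, chr5:53590096-53590219, 124 bases inside the gene as given above, which end where the first exon of a later start begins: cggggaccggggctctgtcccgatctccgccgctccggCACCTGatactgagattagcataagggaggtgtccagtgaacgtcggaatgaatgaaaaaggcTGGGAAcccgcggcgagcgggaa
Rbpjl carried a TC-box and a pair of E-boxes inside 30 bases, an arrangement (any TC-box with any E-box) found in 6.19% of 32851 windows of 300 bases around RefSeq start sites. The Ptf1a window held 1 TC-box, 169 bases before the start, and 0 E-boxes. The first Rbpj window held both boxes, as 19.0% of windows did. Its TC-box at 53590197-53590202 and an E-box at 53590222-53590227, past the printed stretch, together spanned just over 30 bases. A close pair of boxes thus did not clearly set Rbpjl apart from Rbpj. A TC-box was in 25.6% of windows and an E-box in 72.3%. A match describes letters and shows no binding.

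The RNA libraries held 1104 WT and 815 KO barcodes, of which 451 and 369 had at least 1000 genes and were kept, with a median of 6700 and 9856 unique molecular identifiers (UMIs). The ATAC libraries held 838 WT and 700 KO cells at E10.5, and 2314 and 602 at E13.5. Of cell barcodes, 1 was shared by the RNA libraries, 0 by the E10.5 and 2 by the E13.5 ATAC libraries. Every ATAC cell was scaled to a sum of 10000 over the genes listed, so fragment depth is unknown and the ATAC signal has no unit of its own. The E13.5 barcode prefixes name July for WT and September for KO, and a difference between months cannot be told apart from one between genotypes. Cells were placed in gates by marker genes fixed without the 3 members. Of the kept RNA cells, 156 WT (34.6%) and 52 KO (14.1%) fell in a gate called progenitor-like here, with all 11 of its markers (Pdx1, Nkx6-1, Sox9 and others) detected in both libraries. Endocrine-like cells were 83 WT and 162 KO, hepatobiliary-like 37 and 42, mesenchyme-like 57 and 42, and 111 and 62 stayed without a gate. The dissected tissue therefore held other cells beside progenitors, and these shares rest on gates rebuilt here.

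Ptf1a RNA was found almost only in WT progenitor-like cells and was not detected in any KO barcode. The WT gate held 138 Ptf1a UMIs, 70.3 CPM (UMIs per 1000000, 59.1 to 83.1), in 84 of 156 cells (53.8%, 45.7 to 61.8). The KO gate held 0 UMIs in 52 cells. A count of 0 was read as a floor of 3 counts over the gate, which allows up to 3.71 CPM and a share of up to 5.77% of cells with a UMI. Against that floor, Ptf1a was 19.0-fold lower in KO, or 15.9-fold from the low end of the WT interval. The exact interval of the ratio of KO to WT was slightly wider, with an upper end of 0.066. Over all kept cells the counts were 142 and 0 UMIs, 46.2-fold lower in KO against the same floor, or 38.9-fold from the low end. The upper end of the ratio was 0.027 there. The deposited barcodes that failed the gene minimum held another 3 WT and 0 KO UMIs.

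Outside the progenitor-like gate the WT library held 4 Ptf1a UMIs, 2 in mesenchyme-like and 2 in cells without a gate. Endocrine-like cells, at a median of 11717 UMIs against 12095 in the progenitor-like gate, held 0 in 83 cells, which at 3 counts allows a share of up to 3.61%. Hepatobiliary-like cells also held 0, with a floor of 10.2 CPM because there were few. The gate thus held 97.2% of all WT Ptf1a UMIs, while it held 47.8% of all WT UMIs. Of 10656 genes with at least 20 WT UMIs, 1 had a higher share in the gate (Noxa1, named after its value was seen), and the median gene had 45.4%.

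Rbpjl, the acinar paralog, was found in the same gate. The WT progenitor-like gate held 40 UMIs, 20.4 CPM (14.6 to 27.8), in 30 of 156 cells (19.2%, 13.4 to 26.3), and the KO gate held 0. Against the floor of 3 counts, Rbpjl was 5.49-fold lower in KO, or 3.92-fold from the low end of the WT interval. The upper end of the ratio of KO to WT was 0.234. It did not reach the minimum of 50 UMIs set for a ratio, so 2 of the 3 members passed that minimum. The gate held 93.0% of its 43 WT UMIs, a share exceeded by 4 of the 10656 genes (Gprin3, Noxa1, Ptf1a and Tcf24). The other 3 WT UMIs were in cells without a gate. The KO library held 3 Rbpjl UMIs in all, 2 in endocrine-like cells and 1 without a gate, a ratio of KO to WT of 0.071 (0.014 to 0.223) over all kept cells.

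Rbpj, the Notch effector, was detected in every gate of at least 37 cells of both genotypes, and in each of these gates the interval of the ratio of KO to WT held 1. In progenitor-like cells it had 133 WT UMIs, 67.8 CPM (56.8 to 80.3) in 73 cells (46.8%), and 44 KO UMIs, 54.4 CPM (39.6 to 73.1) in 30 cells (57.7%). The ratio of KO to WT was 0.803 (0.558 to 1.137), an interval that holds 1. The share of cells ran the other way from the CPM, beside a median depth of 12095 UMIs in WT and 16116 in KO. The 3 Rbpj pseudogenes annotated on chromosomes 4 and 6 are not listed in the RNA file, and the sources used here do not give how reads shared with them were counted.

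Across WT gates the order of Rbpj was mesenchyme-like 81.7 CPM (56.6 to 114), progenitor-like 67.8, endocrine-like 52.9 (39.9 to 68.6) and hepatobiliary-like 50.9 (28.5 to 84.0). No neighbours in this order differed beyond counting error: the ratio of progenitor-like to mesenchyme-like was 0.830 (0.566 to 1.248), and to endocrine-like 1.283 (0.932 to 1.786). In KO the order was hepatobiliary-like 87.5 CPM (64.9 to 115), mesenchyme-like 73.2 (49.0 to 105), endocrine-like 67.5 (56.4 to 80.2) and progenitor-like 54.4. There the progenitor-like level was 0.622 of the hepatobiliary-like one (0.405 to 0.953). The ratio of KO to WT was 1.278 (0.927 to 1.781) in endocrine-like, 1.718 (0.949 to 3.294) in hepatobiliary-like and 0.896 (0.527 to 1.515) in mesenchyme-like cells. In the cells without a gate, which were shallow (median 2233 and 1944.5 UMIs), Rbpj was at 66.9 CPM in WT (22 UMIs) and 142 in KO (26 UMIs), a ratio of 2.12 (1.15 to 3.92). Over all kept cells Rbpj had 260 WT and 288 KO UMIs, a ratio of 1.134 (0.955 to 1.346).

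**Figure D1:**
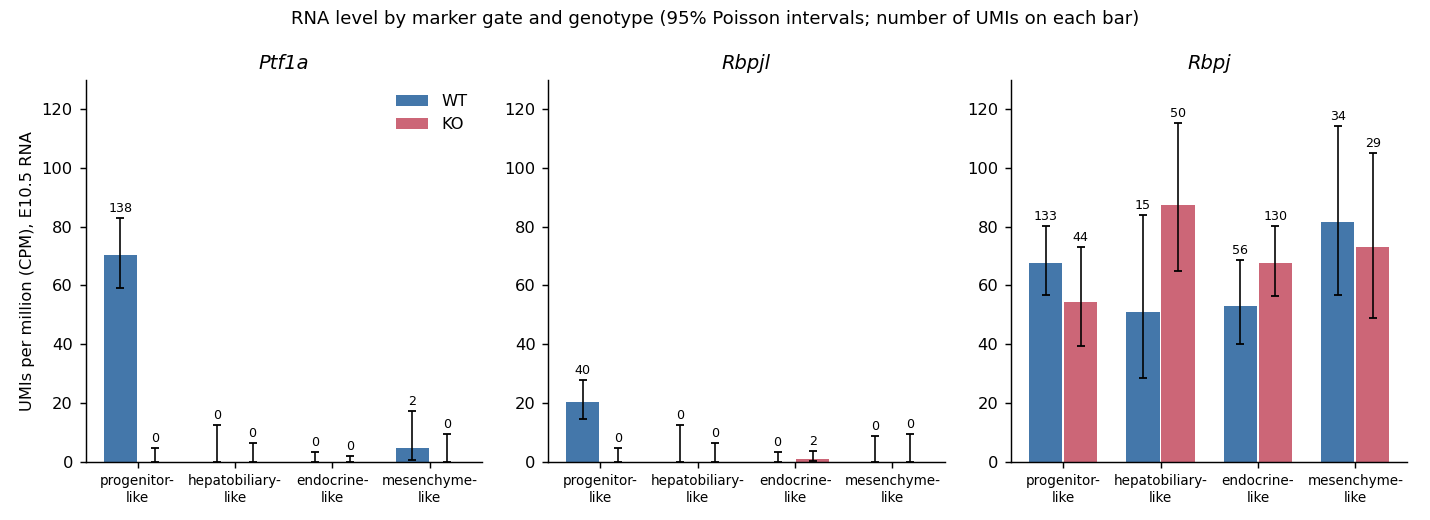
RNA level (CPM, vertical axis) of Ptf1a, Rbpjl and Rbpj in 4 marker gates at E10.5, WT in blue and KO in red, with 95% Poisson intervals and the number of UMIs above each bar. Ptf1a (138 UMIs) and Rbpjl (40 UMIs) stand in the WT progenitor-like gate with 0 in its KO counterpart, and Rbpj is present in all 4 gates of both genotypes.

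Markers of another cell type moved with the genotype in the progenitor-like gate. The hepatobiliary list summed to 418 CPM in WT (10 of 10 markers detected) and 1522 in KO (9 of 10, Sox17 at 0), and the general epithelial list to 1893 and 3541. The progenitor list itself was 1602 and 1837 CPM. The endocrine list was 514 (12 of 12) and 724 (10 of 12, Pax4 and Fev at 0), and the mesenchyme list 212 and 167 with 10 of 10 detected in both. Their part in the low Ptf1a and Rbpjl counts was not tested. In a clustering made without the members, the cluster highest in progenitor markers held 122 WT and 76 KO cells, with 108 and 0 Ptf1a, 29 and 0 Rbpjl and 112 and 84 Rbpj UMIs. There the log2 ratio of Rbpj, on the scale given next, was 0.0069, so its sign was not that of the gate.

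On a log2 scale with 10 CPM added, which understates the change of low genes, the ratio of KO to WT in the progenitor-like gate was -3.01 for Ptf1a, -1.60 for Rbpjl and -0.27 for Rbpj. The median of the 6766 genes with at least 50 UMIs was 0.18. Ptf1a stood at rank 3 from the lowest, after Cpa1 (448 WT and 0 KO UMIs) and Chst2 (323 and 5), and before P2rx1 (128 and 1) and Rhov (161 and 4). The minimum adds both libraries, and Ptf1a (138 and 0 UMIs) reached it through WT alone. Its rank and its place past 2-fold therefore describe the counts and are no test. Past 2-fold lower in KO were 65 genes, 0.961% of those tested, and past 2-fold higher 117, or 1.73%. Under median-of-ratios scaling, which lowers KO against WT by 0.22 before the pseudocount is added and leaves genes at 0 in KO where they were, there were 128 lower and 69 higher, so the lower share of the calls was 65.0% in place of 35.7%. Of the 2 members tested, Ptf1a was past 2-fold lower and Rbpj was not, under either scaling (Rbpj -0.45). Rbpj stood at rank 780, between Nol7 and Atp5g3 on one side and Myo5c and Trmt112 on the other. Over all kept cells 0.27% of genes were past 2-fold lower, Ptf1a among them.

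Ptf1a and its partners were found together in a part of the WT progenitor-like cells, and the partners' CPM did not differ beyond counting error between cells with and without a Ptf1a UMI. Per cell, Ptf1a had 0 UMIs in 72 of the 156 WT progenitor-like cells, 1 in 51, 2 in 19, 3 in 9 and 4 or more in 5. Rbpjl had 1 UMI in 20 cells and 2 in 10, and Rbpj had 1 in 37, 2 in 21, 3 in 9 and 4 or more in 6. All 3 members were detected in 13 cells (8.33%), Ptf1a with Rbpj but not Rbpjl in 33 (21.2%), Ptf1a with Rbpjl alone in 6, and Ptf1a alone in 32 (20.5%). Rbpj alone was in 22 cells (14.1%), Rbpjl with Rbpj in 5, Rbpjl alone in 6 and none of them in 39 (25.0%), whose median depth was 6926 UMIs. The KO gate had 30 cells with Rbpj alone and 22 with none.

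Rbpj was detected in 46 of 84 Ptf1a-positive WT cells (54.8%, 43.5 to 65.7) and in 27 of 72 without a Ptf1a UMI (37.5%, 26.4 to 49.7). The former were deeper, with a median of 13507 against 10517 UMIs. In CPM, Rbpj was 72.4 and 61.0, a ratio of 1.19 (0.82 to 1.73), an interval that holds 1. Rbpjl was detected in 19 of 84 (22.6%) and 11 of 72 (15.3%), at 23.0 and 16.5 CPM, a ratio of 1.39 (0.69 to 2.94). In cells thinned to 8000 UMIs, which 109 of 156 reached, Rbpj was in 20 of 45 Ptf1a-positive cells (44.4%) and 23 of 64 others (35.9%), and Rbpjl in 6 of 45 (13.3%) and 9 of 64 (14.1%). Over all 451 kept WT cells, Rbpjl was 4.01 times as high in CPM in the 88 Ptf1a-positive cells (2.08 to 7.96), while Rbpj was 1.19 times (0.91 to 1.55).

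**Figure D2:**
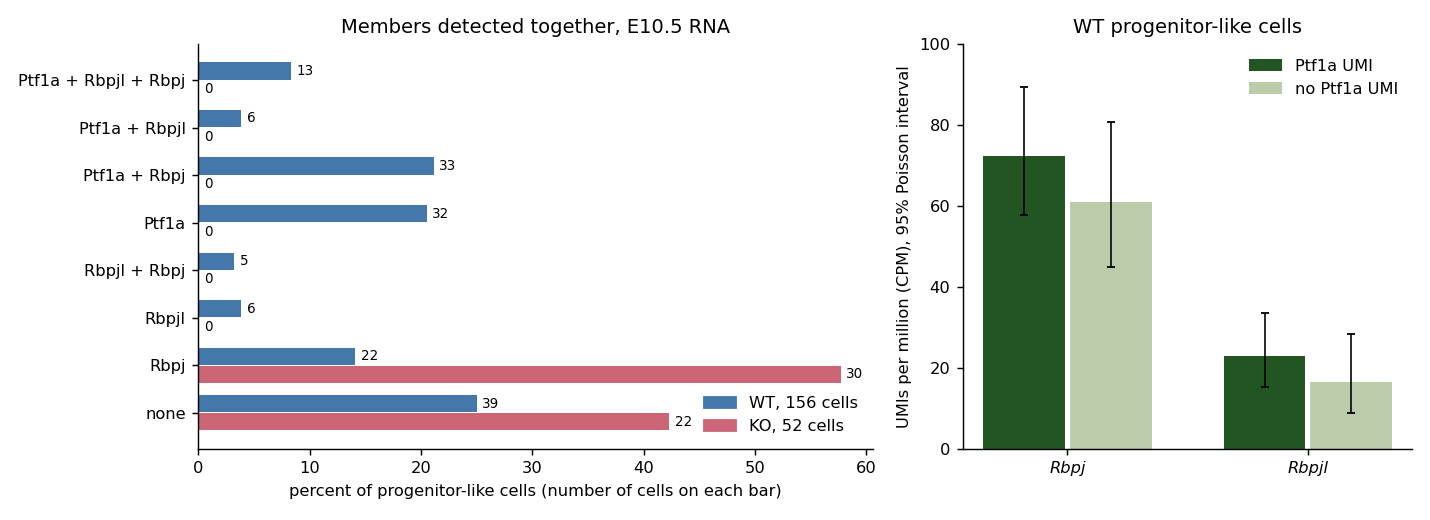
Left, percent of progenitor-like cells with each combination of members detected (number of cells on each bar, WT blue, KO red). Right, CPM of Rbpj and Rbpjl in WT progenitor-like cells with and without a Ptf1a UMI, with 95% Poisson intervals that overlap for both genes.

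Likeness across cells placed Ptf1a beside other genes of the progenitor-like gate and Rbpj beside none strongly. Across the 451 WT cells and 5774 genes, the 5 highest correlations with Ptf1a of log-scaled UMIs were Nepn (r = 0.43), Nkx6-2 (0.42), Spon1 (0.38), Spp1 (0.38) and Vtn (0.38), which share library and depth with it. In the progenitor-like gate, Nepn (2493 WT and 499 KO UMIs), Spon1 (310 and 36) and Vtn (597 and 109) were past 2-fold lower in KO, with log2 ratios of -1.03, -1.62 and -1.12. Nkx6-2 (351 and 339) and Spp1 (266 and 290) were past 2-fold higher, at 1.18 and 1.34, of which Nkx6-2 was within 2-fold under median-of-ratios scaling (0.97). Genes detected in the same WT cells as Ptf1a thus differed in direction between the KO and WT gates. Nkx6-2 is itself a marker used to define the gate, so its level there is not independent of the gating. Rbpjl correlated with Ptf1a at 0.25, and Rbpj at 0.02. The highest genes for Rbpj were Ppip5k2 (0.25), Ttc3, Carm1, Ccdc88a and Nuf2 (0.20).

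The E proteins, the common partners of Ptf1a, were detected in both genotypes. In progenitor-like cells Tcf3 was at 135 CPM in WT and 182 in KO (ratio 1.35, 1.10 to 1.66), Tcf4 at 119 and 145 (1.21, 0.96 to 1.52) and Tcf12 at 102 and 135 (1.32, 1.03 to 1.67). None of the 3 was past 2-fold, and their median log2 ratio was 0.37 beside 0.18 for all genes (0.16 under median-of-ratios scaling). On the Notch side of Rbpj, 9 of 22 listed genes reached 50 UMIs and 0 were past 2-fold in either direction. Of all genes tested, 0.961% were past 2-fold lower and 1.73% higher. Of the 9 Notch genes, 5 were lower in KO, with a median of -0.25 (-0.43 under median-of-ratios scaling). The receptor Notch1 was lowest (153 and 38 UMIs, ratio 0.60, 0.41 to 0.86) and the receptor Notch3 highest (55 and 43, ratio 1.90, 1.24 to 2.88). Hes1, a repressor that Notch induces through Rbpj, had 290 and 99 UMIs (0.829, 0.653 to 1.044). The ligand Jag1 was under the minimum, with 42 and 5 UMIs, a ratio of 0.29 (0.09 to 0.73). The count of 0 past 2-fold does not cover Jag1 or the other listed genes under the minimum.

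Acinar genes known as PTF1 targets were mostly too low to compare at E10.5, and of the 3 that were not, Cpa1 and Clps were past 2-fold lower in progenitor-like KO cells. Cpa1, a pancreatic carboxypeptidase, had 448 UMIs (228 CPM) in the WT progenitor-like gate and 0 in KO. Against the floor of 3 counts this was 61.5-fold lower, or 56.0-fold from the low end of the WT interval. Clps, colipase, had 244 and 17 UMIs, a ratio of 0.17 (0.10 to 0.28), while over all kept cells it had 792 and 734 (0.949, 0.857 to 1.050). In endocrine-like cells, which held 0 Ptf1a UMIs, Clps had 471 and 680 UMIs, a ratio of 0.79 (0.71 to 0.90). Its WT level there was 445 CPM, beside 124 in the progenitor-like gate, so Clps was not confined to cells with Ptf1a. In the progenitor-like gate Nr5a2, a nuclear receptor of exocrine cells, had 137 and 44 (0.78, 0.54 to 1.10). These 3 of 16 listed genes reached 50 UMIs in that gate, 2 of them past 2-fold lower, beside 0.961% of all genes tested. The list median was -2.11 (all genes 0.18). The minimum adds both libraries, and Cpa1 and Clps reached it through their WT UMIs, so this median does not describe the list as a whole. Under that minimum, the protease gene Prss2 had 19 and 0 UMIs and Pnliprp1, a lipase relative, 18 and 0. Cela1 had 38 and 2, and 5 genes were at 0 in both gates.

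In chromatin, the Ptf1a gene signal was lower in KO at E10.5 and lower by more at E13.5, and in the epithelial gate and over all cells Rbpjl was also lower, by less than Ptf1a. The stages were not tested against each other. The ATAC gates are ranges of a marker score, cut after the data had been seen. The non-endocrine epithelial gate held 782 WT and 653 KO cells at E10.5 (93.3% of each library), and 1678 (72.5%) and 266 (44.2%) at E13.5. In WT at E10.5, progenitor markers summed to a mean signal of 40.6 in the gate and 40.6 over all cells. Mesenchyme markers summed to 14.7 and 14.7. At E10.5 the gate thus selected little, and its values are close to those over all cells. Within 0.1 of its lower limit lay 99 and 70 cells at E10.5, and 97 and 17 at E13.5. The sources used here do not give whether the deleted bases lie inside the window counted for Ptf1a.

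At E10.5, in the epithelial gate, the mean Ptf1a signal was 2.48 in WT against 1.74 in the KO library (log2 -0.51), at rank 36 from the lowest of 8220 genes. Ptf1a was above 0 in 63.9% of WT and 68.3% of KO cells. Ptf1a signal was thus above 0 in most KO cells of this gate, at the stage at which its RNA was not detected in KO. The gate held 93.3% of KO ATAC cells, whereas the progenitor-like gate held 14.1% of KO RNA cells. The KO share followed depth. From the shallowest to the deepest of 4 groups by genes above 0, it went from 30.4% to 89.4%, and for Rbpj from 35.5% to 96.5%. It therefore does not show in how many KO cells the Ptf1a gene was open. Rbpjl was 0.76 and 0.67 (-0.17, rank 1080) and Rbpj 1.24 and 1.30 (0.07, rank 5685). None of the 3 was past 2-fold. In all, 0.0122% of genes were past 2-fold lower (1 gene, Alkbh8, named after its value was seen) and 0% higher. In the endocrine gate (43 and 41 cells) Ptf1a was 1.42 and 1.00, with a log2 ratio of -0.51, but at rank 1181 of 8206 genes and beside 3.52% of genes past 2-fold lower.

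At E13.5, in the epithelial gate, the mean Ptf1a signal was 4.60 in WT and 2.00 in KO. This was 2.30-fold lower (log2 -1.20), the lowest of 8228 genes, followed by Ptn (-1.11) and Nkx2-2 (-1.02), the only other genes past 2-fold lower in that gate (0.0365% of genes, with 0.194% past 2-fold higher). Signal was above 0 in 63.3% of WT and 66.9% of KO cells, and in those cells its mean was 7.27 and 2.99. Rbpjl was 1.24 in WT and 0.78 in KO, 1.59-fold lower (-0.67, rank 47), among Rpl9, Akr1e1, Jag1 and Zmpste24. Its share above 0 was 34.7% and 45.5%, and its mean in those cells 3.57 and 1.71. The means of cells above 0, for Ptf1a too, also depend on depth, which was greater in KO, so they do not measure genotype alone. Rbpj was 1.40 and 1.18 (-0.25, rank 1138). Of the 3 members, Ptf1a alone was past 2-fold in the epithelial gate.

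**Figure D3:**
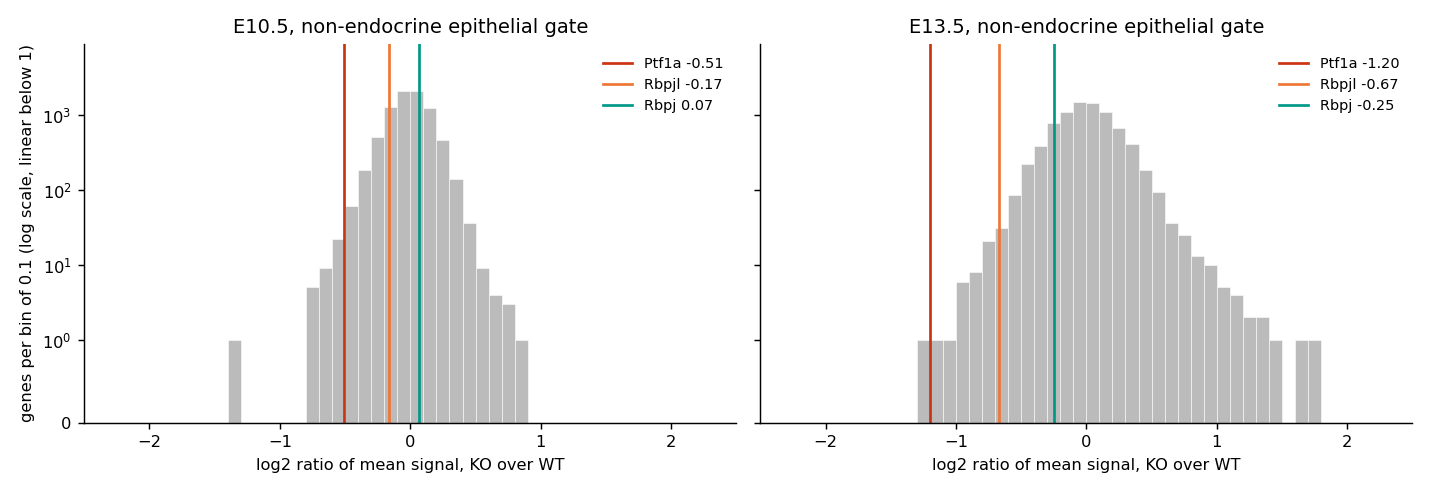
Log2 ratio of mean ATAC signal, KO over WT (horizontal axis), for all tested genes in the non-endocrine epithelial gate at E10.5 and E13.5 (grey, genes per bin, log scale that is linear below 1), with the 3 members as lines. Ptf1a moves from -0.51 at E10.5 to -1.20, the lowest gene, at E13.5, and Rbpj stays within the bulk of genes.

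The share of cells above 0 followed the number of genes above 0 per cell, a measure of depth that differed between the E13.5 epithelial gates (median 3481 in WT and 5621 in KO). With cells split into 4 depth groups at limits that divide the WT cells evenly, the WT share with Ptf1a signal went from 38.3% in group 1, the shallowest, to 86.4% in group 4. For Rbpjl the WT share went from 12.9% to 58.8%, while its mean over all cells of these groups was 1.16 and 1.25. The mean of cells above 0 was thus lower in deeper cells. Within each group the mean Ptf1a signal was lower in KO: 4.76 and 2.02 in group 1, then 5.15 and 1.72, 4.52 and 1.90, and 3.98 and 2.06. Rbpjl was also lower in KO in each group, at 1.16 and 0.47, 1.20 and 0.87, 1.34 and 0.75, and 1.25 and 0.82. Rbpj was not: in group 3 it was 1.40 in WT against 1.69 in KO. KO groups 1 to 3 held only 27, 28 and 37 cells. With E10.5 epithelial cells split in the same way, Rbpjl was 0.81 in WT and 0.62 in KO in group 1. It was 0.53 and 0.60 in group 2, 0.78 and 0.71 in group 3, and 0.91 and 0.73 in group 4. At E10.5 Rbpjl was thus not lower in KO in each group.

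**Figure D4:**
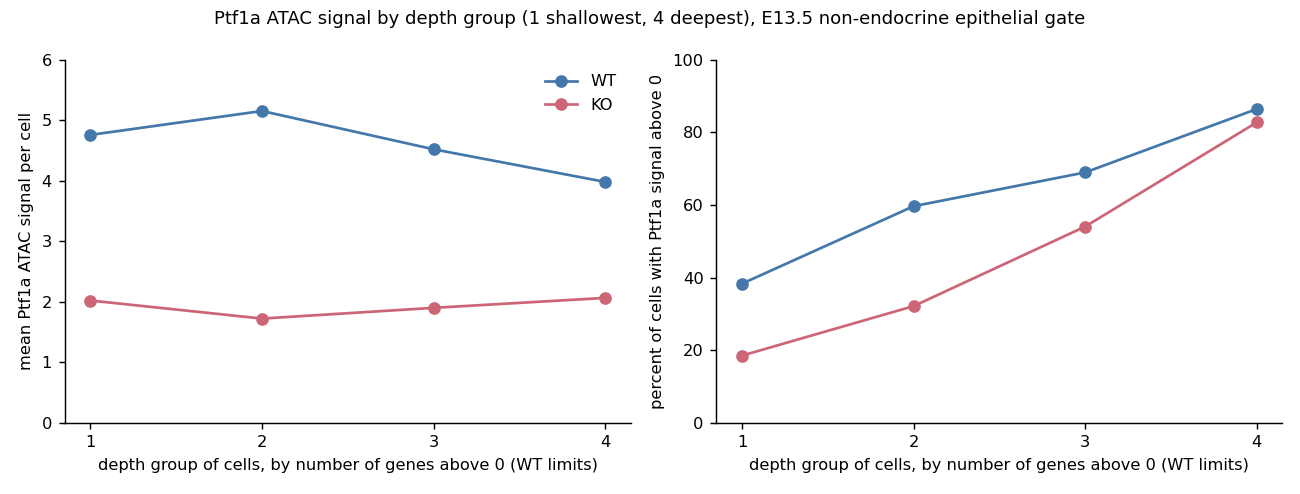
Ptf1a in the E13.5 epithelial gate by depth group of cells (number of genes above 0, WT limits), WT blue and KO red. Left, mean signal, which is between 1.72 and 2.06 in KO and between 3.98 and 5.15 in WT; right, percent of cells above 0, which climbs with depth in both.

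Blood cells moved with genotype at E13.5. The blood gate held 138 WT cells (5.96%) and 270 KO cells (44.9%), and the 8 blood markers, all above 0 in both libraries, summed to a mean signal of 7.27 in WT and 22.1 in KO. Ptf1a in that gate was 0.12 and 0.23. Over all E13.5 cells Ptf1a was 3.81 and 1.12 (log2 -1.77, the lowest of 8208 genes), Rbpjl 1.04 and 0.38 (-1.44, rank 6) and Rbpj 1.31 and 0.91 (-0.52), beside 1.36% of genes past 2-fold lower. Without the cells of the blood gate the 3 ratios were -1.13, -0.77 and -0.08. In the epithelial gate the blood markers (8 of 8 above 0) summed to 5.14 in WT and 5.27 in KO. There the progenitor markers (9 of 9 above 0) summed to 40.3 and 35.0, and the hepatobiliary markers (9 of 9) to 10.0 and 13.4, whose part in the result was not tested.

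In the E13.5 endocrine gate (463 WT and 53 KO cells) Ptf1a was 2.03 in WT and 0.85 in KO, 2.37-fold lower, and Rbpjl 0.68 and 0.14, 4.82-fold lower, beside 1.84% of genes. Rbpjl was above 0 in 106 WT and 6 KO cells, so its ratio rests on few cells. Rbpj was 1.28 and 1.35. Ptf1a signal was thus present in endocrine-gated cells at about the same ratio of genotypes as in the epithelium. Within 0.1 of the endocrine limit lay 127 WT and 7 KO cells, and their part in this signal was not tested. The E10.5 RNA of endocrine-like cells held 0 Ptf1a UMIs in both genotypes. Stage, assay and kind of gate all differ there, so the RNA and ATAC values cannot be set against each other.

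**Figure D5:**
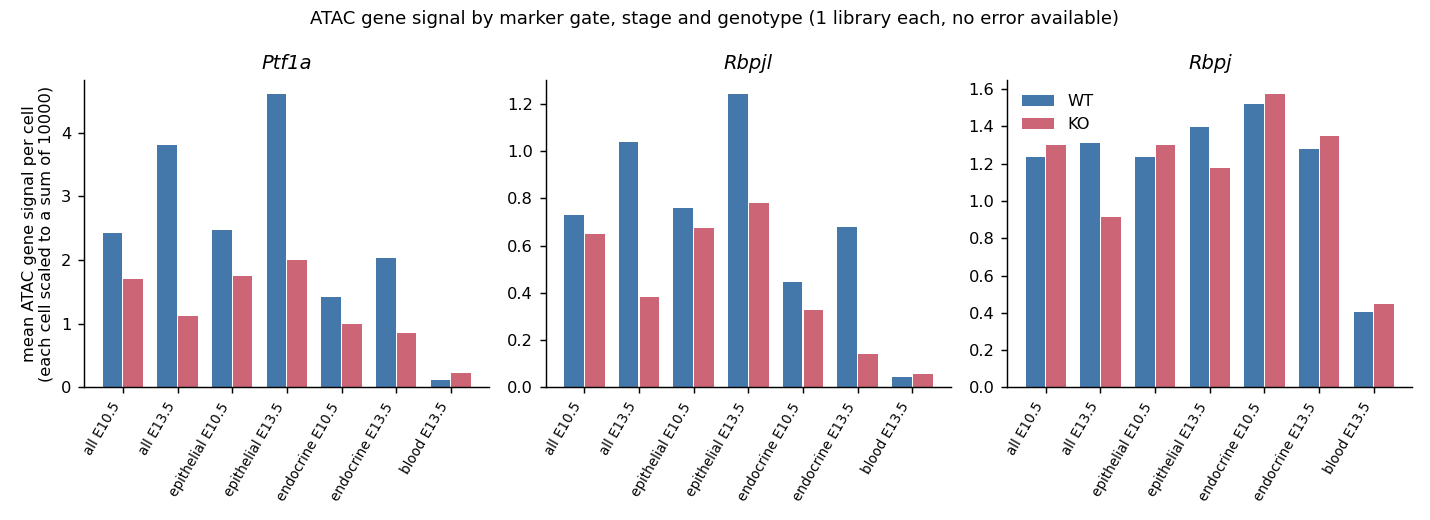
Mean ATAC gene signal per cell (vertical axis, each cell scaled to a sum of 10000) of the 3 members, WT blue and KO red, over all cells and in the epithelial, endocrine and blood gates at E10.5 and E13.5. Ptf1a is lower in KO in every pair of bars but the blood gate, and the KO to WT ratios of Rbpj are closer to 1 than those of Ptf1a in the epithelial and endocrine gates.

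From E10.5 to E13.5 the WT epithelial signal was higher for Ptf1a and Rbpjl. The tables of the 2 stages were scaled separately, which touches each of the next values. So does the gate, which held 93.3% of WT cells at E10.5 and 72.5% at E13.5. Ptf1a went from 2.48 to 4.60 in the WT epithelial gate (1.86-fold, log2 0.89, rank 8192 of 8213), with Pias4, Actb, Ctrb1 and Apobec2 next to it. Rbpjl went from 0.76 to 1.24 (1.64-fold, 0.71, rank 8146) and Rbpj from 1.24 to 1.40 (0.18). None was past 2-fold, which 0.134% of genes were. In the KO epithelial gate the same changes were 0.20, 0.21 and -0.14, with 0.122% of genes past 2-fold higher. The WT and KO changes were not tested against each other.

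None of the other listed genes of the pathway was past 2-fold in the chromatin of the epithelial gate, where hardly any gene was. Of all genes, 0.0122% were past 2-fold lower and 0% higher at E10.5, and 0.0365% and 0.194% at E13.5. The counts of 0 are near these shares and say nothing particular about the pathway. In the E13.5 epithelial gate the log2 ratios of KO to WT were 0.15 for Tcf3, -0.24 for Tcf4 and -0.27 for Tcf12, and at E10.5 they were 0.14, 0.04 and 0.27. Of 13 Notch genes in the ATAC file, 0 were past 2-fold and 7 were lower in KO at E13.5 (median -0.11), from Jag1 at -0.66 to Dll3 at 0.22, with Hes1 at 7.61 in WT and 7.86 in KO. At E10.5 their median was 0.00, and the lowest was Heyl at -0.45. Of 10 acinar genes, 0 were past 2-fold and 9 were lower in KO at E13.5, with a median of -0.33 beside -0.00 for all genes. The lowest was Cckar, the cholecystokinin receptor of acinar cells, at 1.17 and 0.60 (-0.97), and the highest Cela1, an elastase, at 0.19. At E10.5 the acinar median was -0.04 and 5 of 10 were lower, from Cckar at -0.29 to Cela1 at 0.23.

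Rbpjl shared its chromatin signal with an overlapping neighbour. Across 2314 WT cells at E13.5, the gene most like Rbpjl was Matn4 (r = 0.73), an extracellular matrix gene on the opposite strand (chr2:164389393-164405160) that overlaps Rbpjl by 2080 bases. Of 691 cells with Rbpjl signal, 573 (82.9%) had Matn4 signal. Next came Sdc4 (0.26), which begins 8798 bases after Rbpjl, and Ptpn1, Pigt and Sys1 (0.15 to 0.16), all on chromosome 2. Matn4 in the epithelial gate was 1.24 in WT and 0.88 in KO at E13.5 (log2 -0.49), and 0.86 and 0.72 at E10.5 (-0.25). In RNA, Matn4 had 86 UMIs in the WT progenitor-like gate and 0 in KO, at least 11.8-fold lower. It was in 15 of the 30 Rbpjl-positive cells and in 29.4% of the others. Use of strand in counting is not stated, so reads of the overlap cannot be assigned to Rbpjl or Matn4, in RNA or in ATAC. Ptf1aos, an antisense RNA that overlaps Ptf1a by 1012 bases, had 0 UMIs in both libraries.

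Ptf1a had no such neighbour among its most similar genes. Its 5 highest correlations in the same WT cells were Ccl12 (0.35), Cxadr (0.32), Rhot1, Lgals9 and Ppm1f (0.29), on chromosomes 11 and 16. Their rank correlations were 0.04 to 0.17, and at E10.5 in WT the correlations of the same pairs were -0.06 to 0.02. Within the WT E13.5 epithelial gate, Rbpjl was above 0 in 42.0% of cells with Ptf1a signal and 22.0% of cells without, at a median of 4000 and 2578 genes above 0. The correlation of the signals was 0.07 for Ptf1a and Rbpjl and 0.02 for Ptf1a and Rbpj.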

How the data were processed

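The RNA values are deposited raw UMI counts per gene and barcode, per the file headers. The ATAC values are a deposited gene signal that sums to 10000 per cell. The authors' reads were placed on mm10, per the submitters' processing notes. The sources used here do not give the aligner, cell filters or ATAC gene window. Barcode prefixes and gene symbols were read as deposited, per the file headers, and 0 columns of other samples were present.

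RNA cells with at least 1000 genes were kept and gated on the marker list with the highest share detected (at least 3 markers, no tie). ATAC gates used marker scores averaged over each cell and 15 neighbours, cut at 1.5 (endocrine), 2 (blood) and 0.8 (epithelium, including everything epithelial that was not endocrine). Scanpy 1.11.5 with leidenalg 0.10.2 (resolution 0.3) gave the clustering alternative. Scrublet called 2 WT and 8 KO doublets, 0.443% and 2.17%, which were kept. Intervals are exact Poisson, Clopper-Pearson or exact conditional at 95%. A count of 0 was set to a floor of 3 counts over the group for a fold. RNA ratios used 10 CPM as pseudocount and genes with at least 50 UMIs, and ATAC ratios genes above 0 in at least 10% of cells of a library. The calculations were tested on simulated data. The members, lists and markers were chosen with earlier results of these data known. The genes named are the members, the E proteins, Hes1, the lowest, highest and past 2-fold genes of the Notch and acinar lists, the 5 genes most correlated with a member, and the 2 genes on each side of a member in rank. Others are marked, and not every gene under this rule is reported here.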

Additional observations from a re-analysis of the deposited data

Results flagged for a closer look

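Several ratios had opposite signs in 2 groups, and none of these differences was tested. Over all cells, the log2 change from E10.5 to E13.5 was 0.65 in WT and -0.60 in KO for Ptf1a, 0.51 and -0.76 for Rbpjl, and 0.088 and -0.51 for Rbpj. In the epithelial gate the change of Rbpj was 0.18 in WT and -0.14 in KO, while Ptf1a and Rbpjl had the same sign in both.

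For Rbpj, the log2 ratio of KO to WT over all cells was 0.077 at E10.5 and -0.52 at E13.5, and in the epithelial gate 0.068 and -0.25. In RNA it was -0.27 in progenitor-like and 0.30 in endocrine-like cells. The share of blood-gated cells at E13.5, 5.96% in WT and 44.9% in KO, moves with the values over all cells, and without those cells the E13.5 ratio of Rbpj was -0.08.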

How the results depend on the processing

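Of 144 values under alternatives, for 27 results, 123 stayed within the counting interval (RNA) or within 1.5 times (ATAC), and 21 moved beyond it. Of the values, 6 changed sign, in results that were within 2-fold, and 0 in results past 2-fold. These include Rbpj in the progenitor cluster (0.0069) and, without the 10% of cells at each end of depth, in the E10.5 epithelial gate (-0.013). With a pseudocount of 1 CPM the log2 ratios in the progenitor-like gate were -6.16 for Ptf1a and -4.42 for Rbpjl, and with 50 CPM -1.27 and -0.49. Over all kept cells they were -5.15 and -2.71 with 1 CPM, and -0.76 and -0.25 with 50 CPM. Cells thinned to 2000 UMIs gave -1.83 for Ptf1a, -0.71 for Rbpjl and -0.47 for Rbpj over all kept cells, the last with its sign changed. That thinning gave a share of 11.6% for Ptf1a and 11.6% for Rbpj in WT progenitor-like cells, and 22.2% for Rbpj in Ptf1a-positive ones. Thinning to 8000 UMIs, chosen after the data were seen, gave 41.3% for Ptf1a. Without blood-gated cells (also added later for this ratio), E13.5 KO over WT was -1.13 for Ptf1a and -0.77 for Rbpjl. The KO change from E10.5 to E13.5 was then 0.12 and -0.0045, and in the epithelial gate, another later addition, 0.20 and 0.21, where the signs changed but for -0.0045. No paired analysis was possible because each group holds 1 library. Depth limits Rbpjl most, with 43 WT UMIs over all kept cells.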
